A study of Mus musculus with 39 samples.

Results

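Chemokines are small secreted proteins that direct the movement of leukocytes, and the genes described here are the CC and CXC chemokines of the mouse with their receptors. They were taken as the rows of the lung and colon expression tables whose gene symbol begins with Ccl, Cxcl, Ccr or Cxcr and a digit, leaving out predicted genes and pseudogenes. This gave 52 genes (35 ligands and 17 receptors) of 55357 in each table, and 3 rows (Ccl19-ps1, Ccl19-ps3 and Cxcl11) were left out as pseudogenes in the reference annotation. In lung 37 of the 52 reached 1 FPKM (a level of fragments scaled to transcript length and library size) in at least 4 libraries and were tested, and in colon 36 did.

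The study sequenced mRNA-enriched RNA of lung and colon from C57BL/6N mice, which were wild type (WT) or Cd177 knock-out (KO) and were labelled sham or AP, acute pancreatitis. Cd177 encodes a surface protein of neutrophils. The 8 groups were lung and colon each of WT sham, WT AP, KO sham and KO AP, with 5 libraries a group except KO AP colon, which had 4 (replicates 1, 3, 4 and 5). How pancreatitis was induced, the age of the mice, the time of sampling, the kind of Cd177 allele and whether each library came from a separate animal are not stated in the labels, so the p-values measure the spread between libraries.

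Chemokine receptors are G protein-coupled receptors on leukocytes and some tissue cells. A cell that carries the receptor moves toward the source of its ligand. Homeostatic chemokines such as Cxcl12, Cxcl13, Ccl19 and Ccl21 place lymphocytes and stromal cells in resting tissue. Inflammatory chemokines are induced in inflamed tissue: Cxcl1 and Cxcl5 attract neutrophils through Cxcr2, Ccl2, Ccl7 and Ccl12 attract monocytes through Ccr2, Cxcl9 and Cxcl10 attract activated T and NK cells through Cxcr3, and Ccl3, Ccl4 and Ccl5 attract T cells, NK cells and monocytes. In acute pancreatitis, lung and gut are among the organs in which such recruitment can damage tissue.

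Sequencing depth, worked out from the smallest steps between FPKM values, was 57.9 to 71.2 M reads (M, the prefix mega) for lung of WT and 77.0 to 95.4 M for lung of KO. For colon it was 55.6 to 78.3 M (WT) and 77.7 to 98.6 M (KO). Genotype and depth can therefore not be told apart in lung, and in colon their ranges overlapped only slightly. Cd177 was listed at 0 in every KO library, against means of 2.01 and 3.19 FPKM in WT sham and WT AP lung and 43.2 and 60.7 FPKM in colon (exact two-sided permutation p = 0.00794 in each pair of 5 against 5 libraries, 0.0159 in colon AP). Summed markers of lung epithelium were at least 37899.8 FPKM in every lung library and at most 3.47 FPKM in every colon library. KO libraries resembled their own group less (mean Pearson correlation of log2(FPKM + 1) with the others of the group 0.929 to 0.962 in lung and 0.934 to 0.954 in colon, WT 0.968 to 0.988 and 0.942 to 0.975), and 6 KO libraries were under 0.94: replicates 4 and 5 of KO sham lung, replicate 3 of KO AP lung, replicates 1 and 4 of KO AP colon, and replicate 5 of KO sham colon. The last of these stood apart in many members, and several colon results that use it are given with and without it.

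**Figure D1:**
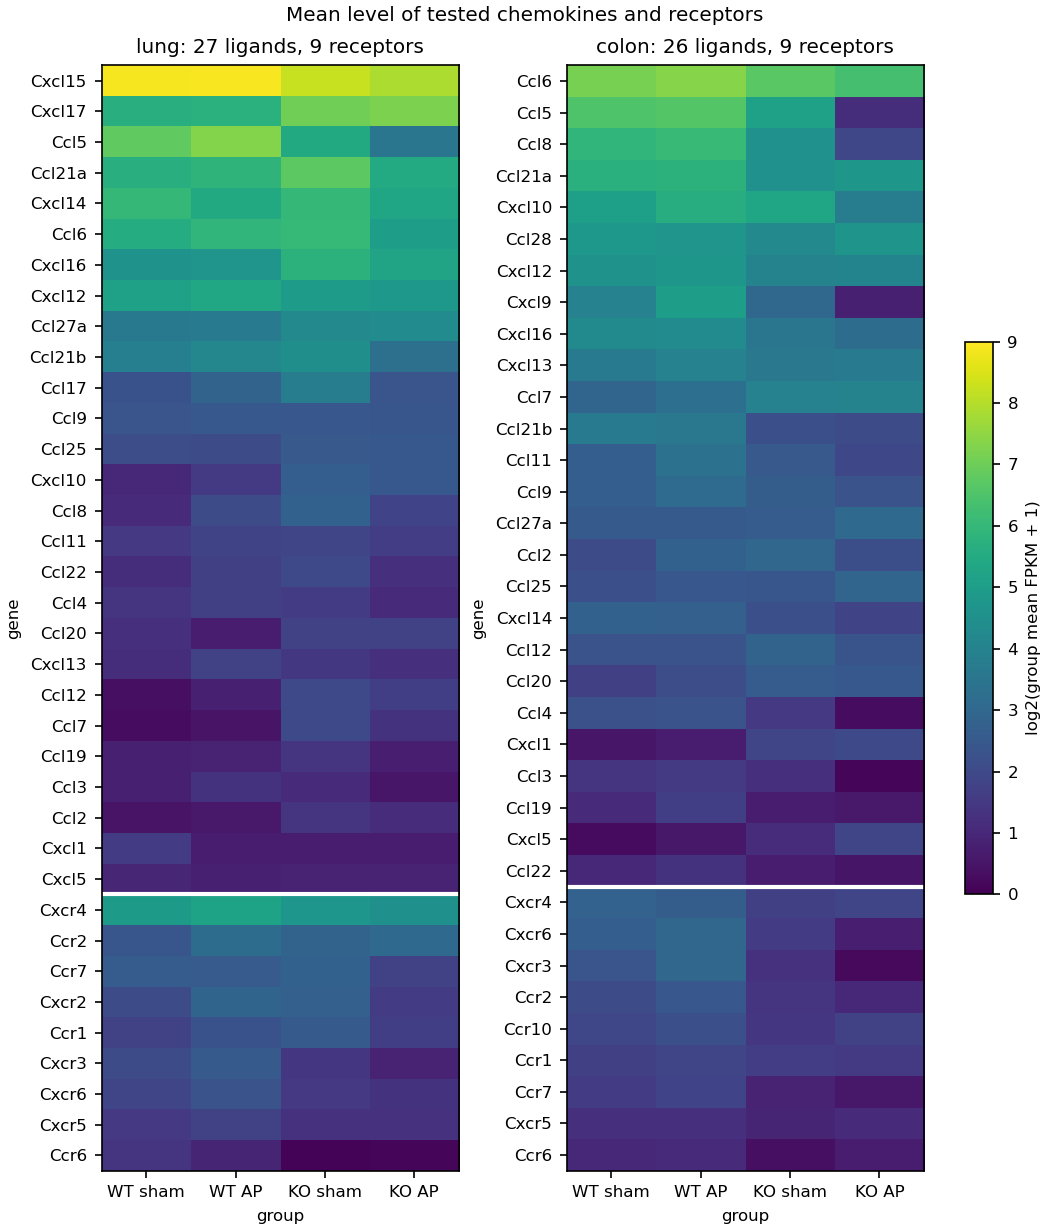
Mean level of tested chemokines and receptors in the 8 groups, as log2(group mean FPKM + 1) by colour, with ligands above the white line and receptors below it, each ordered by their mean over all libraries of the tissue. Cxcl15 led in lung and Ccl6 in colon, and Ccl5, Ccl8 and Cxcl9 are far darker in KO AP than in WT AP colon.

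The tissues had different chemokine profiles by level. Of the members, 33 were tested in both tissues, 4 in lung only (Ccl17, Cxcl15, Cxcl17 and the receptor Cxcr2) and 3 in colon only (Ccl28, Cxcl9 and the receptor Ccr10). The 12 tested in neither were Ccl1, Ccl24, Ccl26, Ccl27b, Cxcl2, Cxcl3, Ccr1l1, Ccr3, Ccr4, Ccr8, Ccr9 and Cxcr1. Among these the highest single values were 3.81 FPKM of Cxcr1, a neutrophil receptor, in a lung library and 3.80 FPKM of Cxcl2, a neutrophil attractant, in a colon library, and Ccl26 was listed at 0 in every library.

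In lung the most abundant ligand over all libraries was Cxcl15 (mean 370.0 FPKM), a chemokine of mouse airway and alveolar epithelium that attracts neutrophils and was listed at 0 in every colon library. It was followed by Cxcl17 (95.2 FPKM), a mucosal chemokine, and Ccl5 (80.9 FPKM), a product of T and NK cells. Cxcr4 (28.1 FPKM), the receptor of Cxcl12, and Ccr2 (6.51 FPKM) led the receptors. In colon the order began with Ccl6 (124 FPKM), a CC chemokine of rodent myeloid cells, Ccl5 (58.8 FPKM) and Ccl8 (39.6 FPKM), a relative of Ccl2, and the receptors with Cxcr4 (4.13 FPKM) and Cxcr6 (3.87 FPKM), the receptor of Cxcl16. These means are FPKM and therefore per length. Ccl28 (23.5 FPKM in colon), a mucosal ligand of Ccr10, reached at most 0.296 FPKM in lung.

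No chemokine or receptor passed the test for AP against sham in either genotype or tissue. The test was limma on log2(FPKM + 1) over all tested genes, with Benjamini-Hochberg adjusted p under 0.05. The background was sparse too: percent_called, the share of all tested genes that passed, was 0.0814% for lung of WT, 0.0125% for lung of KO, 0.0% for colon of WT and 0.04% for colon of KO, and 0.0% in either tissue for the difference of the AP response between KO and WT. At an unadjusted limma p under 0.05 there were 6 members (WT) and 12 (KO) for lung, 1 (WT) and 3 (KO) for colon, and 13 in lung and 3 in colon for the difference. The share of all tested genes at that unadjusted threshold is not given here, so these counts cannot be set against a background.

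In WT lung the lowest p for AP among the receptors was that of Ccr2, which marks inflammatory monocytes. Its FPKM was 6.07, 3.1, 4.4, 4.25 and 3.51 in the WT sham libraries and 7.97, 11.0, 9.65, 5.86 and 6.27 in the WT AP libraries. WT AP libraries lay higher, with overlap through WT sham replicate 1. The log2 difference was 0.79 ± 0.24 (SE), with a limma p of 0.00422 and an adjusted p of 0.466. Ccr1, a receptor of neutrophils and monocytes, was 2.83, 2.73, 2.36, 2.33 and 1.34 FPKM in WT sham and 5.36, 3.05, 3.88, 3.04 and 3.67 FPKM in WT AP, groups that did not overlap, while 1.21% of all tested genes were higher in WT AP without overlap. Its limma adjusted p was 0.846. Summed neutrophil markers were 120.0 to 338 FPKM in WT sham and 580.4 to 868 FPKM in WT AP lung, and their part in these values was not tested.

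The other WT lung values near the front included those of Ccl8 (0.87 ± 0.30, limma adjusted p = 0.542), Cxcl1 (-0.86 ± 0.25, limma adjusted p = 0.39) and those of Ccl3 and Cxcl14. With estimated sample weights, 13 members passed in WT lung, 11 of them higher and 2 lower in AP. Those included Ccr2, Ccl8 and Cxcl1. The share of all tested genes that passed with these weights is not given here, so the 13 cannot be set against a background. In KO lung, Ccl17, a ligand of Ccr4 made by dendritic cells, was 6.16, 11.3, 7.84, 7.59 and 32.3 FPKM in KO sham and 5.32, 3.81, 3.77, 4.43 and 3.86 FPKM in KO AP. The AP values lay under every sham value, which held for 0.376% of all tested genes, and KO sham replicate 5 was far above the rest. The log2 difference of Ccl17 was -1.17 ± 0.33 (limma adjusted p = 0.166). Over omissions of a library it ran from -1.35 to -0.79. The limma adjusted p was 0.0497 without KO sham replicate 1 and up to 0.368 in other omissions.

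In KO colon the lowest limma p for AP among the members was that of Ccl25, the ligand of Ccr9, which was 3.36 to 6.0 FPKM in KO sham and 4.82 to 7.46 FPKM in KO AP (0.52 ± 0.14, adjusted p = 0.101). The most negative AP minus sham differences there were those of Cxcl10 and Ccl8, whose library values are given with the genotype comparison. That of Ccl8 was -1.87 ± 0.67 (limma adjusted p = 0.166, 0.0228 without KO sham replicate 1 and up to 0.4 in other omissions). Without KO sham replicate 5 the Ccl8 difference was -1.17 (limma adjusted p = 0.294). That of Cxcl10 was -2.14 ± 0.84 (limma adjusted p = 0.19, and 0.0421 without the libraries of colon under 0.94). Without KO sham replicate 5 alone it was -1.83 (limma adjusted p = 0.343), and single omissions reached 0.443. In WT colon the difference of Ccl11 was 0.65 ± 0.22 (limma adjusted p = 0.791).

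**Figure D2:**
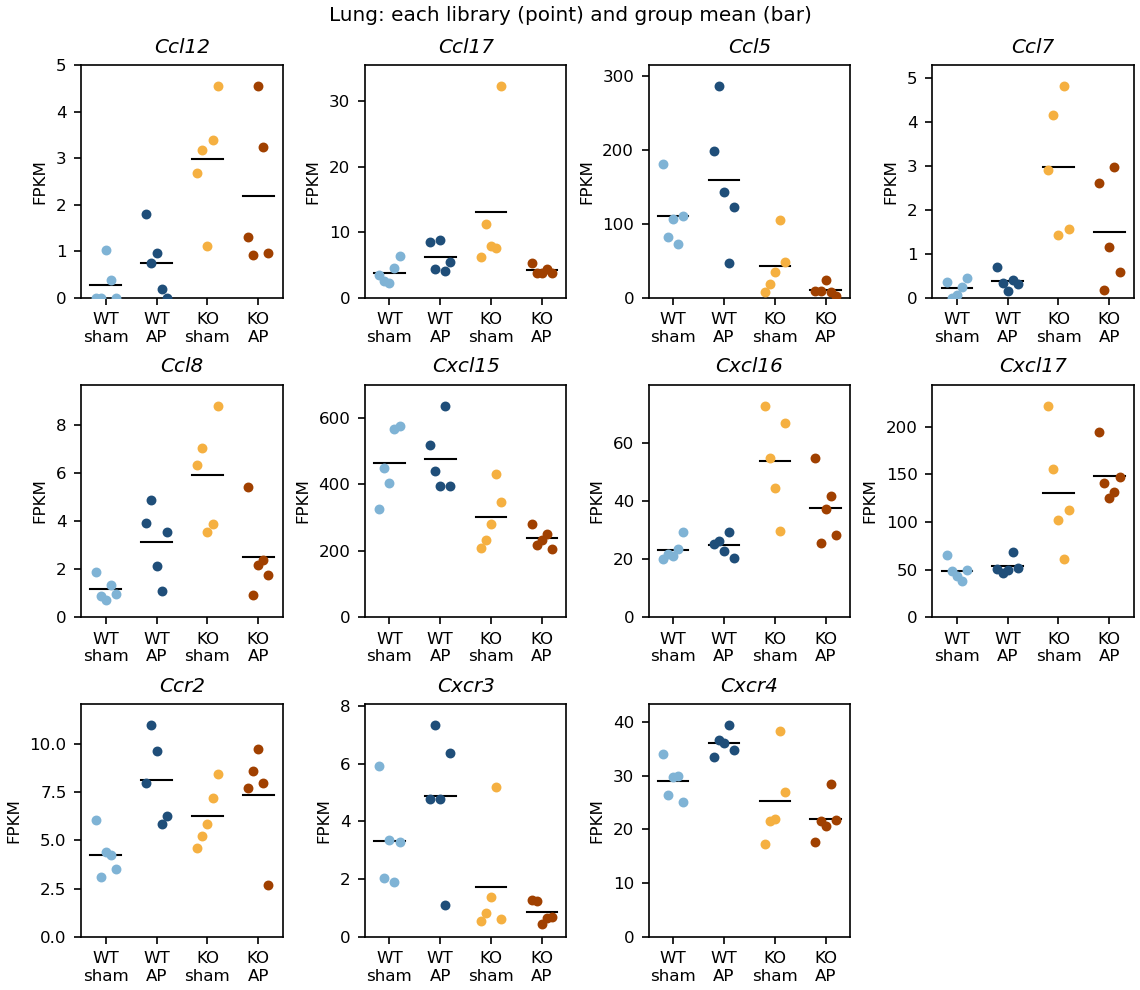
FPKM of 11 members in each lung library (points, coloured by group) with the group mean (bar), each panel on its own linear axis from 0. Ccl5 and Cxcr3 are low in most KO libraries, Cxcl17 and Cxcl16 are high in KO, and Ccl7, Ccl8 and Ccl12 are highest in KO sham.

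Comparing KO with WT asks what the loss of Cd177 goes with in each tissue. In AP lung 21 of 37 members passed, against a percent_called of 55.8% over all tested genes, so the share of members (56.8%) was near the background. Of these, 7 ligands were higher in KO, and 7 ligands and 7 receptors were lower. Over all genes 27.6% were higher and 28.1% lower. The median log2 difference of the 37 was -0.45, against 0.00 over all genes, and that of the 10 receptors -0.73. Without KO AP replicate 4 or WT AP replicate 2, 13 members passed in AP, and the share of all tested genes in these omissions is not given here. In sham lung 15 of 37 passed against a percent_called of 58.8%, with 11 ligands higher (28.8% of all genes), and 3 ligands and 1 receptor lower (30.0%). The median of the members was 0.27 and of all genes -0.01. In bulk tissue, fewer cells of a type and less RNA per cell cannot be told apart. With a pseudocount of 0.1 in place of 1, the fold of 29 of 67 member differences that had passed grew by over 1.5 times. Among them were Ccr6 in sham lung (-3.28 on the log2 scale in place of -1.22) and Cxcr3 in AP colon (-4.56 in place of -2.49).

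Scaling changed the balance of directions in lung. With values rescaled to TPM (each library divided by its FPKM sum), the median of all tested genes moved to -0.18 in AP and -0.26 in sham, and the members split into 3 higher and 15 lower in AP and 8 higher and 6 lower in sham. The members' medians were then -0.66 and -0.01, which is -0.48 and 0.25 relative to the median of all genes. Lung members that had passed kept their direction under TPM. Ccl12, Ccl7 and Cxcl16 in AP, Ccl27a and Ccl22 in sham and Ccl25 in both lost the call.

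Ccl5, which attracts T cells, NK cells and monocytes, had the lowest limma p of all members in AP lung. Its FPKM was 181, 81.7, 106, 72.6 and 111 in WT sham and 198, 286, 143, 47.3 and 123 in WT AP, against 8.39, 19.0, 35.3, 105 and 48.3 in KO sham and 9.0, 8.54, 24.6, 7.9 and 2.61 in KO AP. Every KO AP library was lower than every WT AP library, whereas in sham the KO replicate 4 reached the WT range. Ccl5 fell by 3.85 ± 0.57 (SE) on the log2 scale in AP, from 159 ± 89.1 to 10.5 ± 8.26 FPKM (mean ± SD, n = 5 each; limma adjusted p = 2.14e-05). In sham the difference was -1.71 ± 0.57, adjusted p = 0.0147 by limma, and the adjusted p was 0.0531 without KO sham replicate 1. Summed T and NK markers moved with it: 166, 76.4, 99.0, 83.4 and 88.8 FPKM in WT sham, 209, 263, 172, 56.5 and 179.8 in WT AP, 20.8, 44.9, 69.0, 164 and 100.3 in KO sham and 32.1, 32.5, 50.2, 22.8 and 12.0 in KO AP. Of the 12 markers in this list, 12 were lower in KO AP (28.1% of all tested genes) and 4 in KO sham (30.0%). None of the markers was at 0 throughout a group, and their part in the fall of Ccl5 was not tested.

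Ccl3 and Ccl4, inflammatory chemokines of macrophages and lymphocytes, were lower in AP lung. Ccl3 was 0.799 to 2.31 FPKM in WT AP and 0.0558 to 1.42 in KO AP (-0.82 ± 0.20, adjusted p = 0.00205 by limma), and Ccl4 was 0.82 to 3.66 and 0.468 to 1.87 (-0.62 ± 0.24, adjusted p = 0.033 by limma, a call lost in 7 of 20 omissions of a library, adjusted p up to 0.104). In sham neither passed. Ccl6 was 69.0, 57.4, 64.7, 44.3 and 66.3 FPKM in WT AP and 30.7, 17.8, 44.1, 35.1 and 32.8 in KO AP, without overlap, and fell by 0.93 ± 0.32 (limma adjusted p = 0.0184, 0.0598 without KO AP replicate 2). Ccl9, its close relative, did not pass in either state (-0.14 ± 0.21 in AP). Summed monocyte and macrophage markers were 3602 to 4016 FPKM in WT AP and 1219 to 3002 FPKM in KO AP lung, without overlap. Of these 8 markers 4 were lower (28.1% of all tested genes) and 1 higher (27.6%). Their part in the values of Ccl3, Ccl4 and Ccl6 was not tested.

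The chemokines of lung epithelium and mucosa did not move in one direction. Cxcl15 was 326, 448, 405, 567 and 577 FPKM in WT sham, 519, 441, 395, 636 and 396 in WT AP, 209, 232, 282, 431 and 347 in KO sham and 282, 218, 232, 249 and 206 in KO AP. All KO AP libraries lay under all WT AP libraries, and the sham groups overlapped. It fell by 0.99 ± 0.20 in AP (limma adjusted p = 4.39e-04) and fell by 0.65 ± 0.20 in sham (limma adjusted p = 0.00977). Cxcl17 went the other way, with 65.2, 48.9, 43.4, 37.9 and 49.5 FPKM in WT sham, 50.3, 46.5, 49.9, 68.6 and 51.4 in WT AP, 222, 155, 102, 61.1 and 113 in KO sham and 194, 141, 126, 131 and 147 in KO AP. No KO AP library reached down to the WT AP range, and in sham only KO replicate 4 lay within the WT range. Cxcl17 was higher by 1.45 ± 0.24 in AP (limma adjusted p = 6.61e-05) and by 1.29 ± 0.24 in sham (limma adjusted p = 1.57e-04). Summed lung epithelium markers were 67325 to 116703 FPKM in WT AP and 42429 to 153847 FPKM in KO AP. Of these 6 markers 1 was higher in KO (27.6% of all tested genes) and 1 lower (28.1%).

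Cxcl16, a membrane-bound chemokine of macrophages and epithelium, rose in KO lung. It was 20.2, 21.7, 21.0, 23.5 and 29.4 FPKM in WT sham, 25.2, 26.2, 22.8, 29.2 and 20.4 in WT AP, 72.6, 54.8, 44.4, 29.7 and 66.8 in KO sham and 54.8, 25.5, 37.3, 41.6 and 28.4 in KO AP. The sham groups did not overlap and the AP groups did. The log2 difference was 1.12 ± 0.21, adjusted p = 1.93e-04 in sham and 0.54 ± 0.21, adjusted p = 0.0384 in AP by limma, the latter lost in 7 of 20 omissions of a library (adjusted p up to 0.125).

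The ligands of Ccr2 and the related Ccl8 were higher in KO sham lung. These genes share a cluster on chromosome 11. Ccl7 was 0.368, 0, 0.062, 0.234 and 0.447 FPKM in WT sham, 0.69, 0.328, 0.16, 0.401 and 0.306 in WT AP, 2.9, 4.14, 1.42, 4.8 and 1.57 in KO sham and 2.6, 0.168, 1.15, 2.96 and 0.578 in KO AP. All KO sham libraries were above all WT sham libraries, while KO AP ranged from WT levels to KO sham levels. Ccl7 rose by 1.63 ± 0.29 in sham (limma adjusted p = 1.15e-04) and by 0.71 ± 0.29 in AP (limma adjusted p = 0.0447, lost in 10 of 20 omissions of a library, up to 0.142). The WT values stand for 0 to 35 reads a library.

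Ccl12 was 0, 0, 1.02, 0.378 and 0 FPKM in WT sham, 1.81, 0.748, 0.954, 0.189 and 0 in WT AP, 2.69, 3.18, 1.11, 3.39 and 4.55 in KO sham and 1.31, 0.917, 4.55, 3.25 and 0.969 in KO AP. It was listed at 0 in 3 WT sham libraries and 1 WT AP library, and the sham groups did not overlap. It rose by 1.63 ± 0.33 in sham (limma adjusted p = 3.82e-04) and by 0.83 ± 0.33 in AP (limma adjusted p = 0.0401, lost in 5 of 20 omissions, up to 0.122, and without the lung libraries under 0.94, at 0.109). Ccl2 rose in sham (0.87 ± 0.25, adjusted p = 0.00655 by limma), with 0.106 to 0.834 FPKM in WT and 0.782 to 3.53 FPKM in KO, and did not pass in AP (0.52 ± 0.25). Without overlap in sham were 5 members that were higher (Ccl7, Ccl8, Ccl12, Ccl27a and Cxcl16), of 37, against 19.3% of all tested genes, and 1 that was lower (Ccr6), against 22.5%.

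Ccl8 was 1.9, 0.879, 0.713, 1.34 and 0.955 FPKM in WT sham, 3.93, 4.87, 2.13, 1.09 and 3.53 in WT AP, 6.34, 7.03, 3.55, 3.87 and 8.79 in KO sham and 5.42, 0.92, 2.15, 2.37 and 1.77 in KO AP. KO sham was above WT sham in every library, and the AP groups overlapped. Its sham difference was 1.65 ± 0.30, adjusted p = 1.39e-04 by limma and its AP difference -0.25 ± 0.30 (limma adjusted p = 0.502). The difference of the AP response between KO and WT was -1.89 ± 0.43 for Ccl8 (limma adjusted p = 0.269) and -1.76 ± 0.46 for Ccl17 (limma adjusted p = 0.442), and neither passed. Summed monocyte and macrophage markers were 3534 to 4502 FPKM in WT sham and 1095 to 4993 FPKM in KO sham lung. Of these 8 markers 2 were higher (28.8% of all tested genes) and 2 lower (30.0%), near the background. Their part in the Ccl8 and Ccl17 values was not tested.

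Further ligands passed in lung at lower levels or by smaller steps. Ccl17 rose in KO sham (1.34 ± 0.33, adjusted p = 0.00165 by limma), and so did Ccl22 (0.71 ± 0.28), another Ccr4 ligand, and Cxcl10 (1.54 ± 0.47), a ligand of Cxcr3 that interferons induce. Cxcl10 was 0.0954 to 1.86 FPKM in WT sham and 1.45 to 10.9 FPKM in KO sham. Cxcl1 fell in KO sham (-0.82 ± 0.25, adjusted p = 0.00823 by limma), with 0.796 to 3.53 FPKM in WT and 0.0833 to 0.871 FPKM in KO. Ccl27a, known as a skin chemokine, rose in AP (0.63 ± 0.17) and sham (0.55 ± 0.17), and Ccl25, the gut and thymus ligand of Ccr9, in AP (0.42 ± 0.14) and sham (0.39 ± 0.14). Ccl20, the ligand of Ccr6, rose in AP (1.05 ± 0.40), with 0.0339 to 1.01 FPKM in WT and 0.783 to 4.7 FPKM in KO. Cxcl12 fell in AP (-0.58 ± 0.21), with 30.9 to 47.5 FPKM in WT and 20.4 to 42.2 FPKM in KO. In AP lung, summed fibroblast markers were 264 to 358 FPKM in WT and 106 to 148 in KO (5 of 5 lower, against 28.1% of all tested genes), and summed blood endothelium markers 446 to 580.0 and 127 to 189 (3 of 3 lower). Neither pair of ranges overlapped, and their part in the value of Cxcl12 was not tested. Of these calls, those of Ccl22 in sham were lost in 6 of 20 omissions of a library, of Ccl25 in 2 in AP and 4 in sham, of Ccl20 in 4 and of Cxcl12 in 5, with limma adjusted p up to 0.123. Without the lung libraries under 0.94 the sham calls of Ccl22 (limma adjusted p = 0.101) and Ccl25 (0.226) were lost.

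The lymphoid tissue ligands of Ccr7 overlapped widely. Ccl21a reached 298 FPKM in KO sham replicate 5 against 43.1 to 81.2 FPKM in the other KO sham libraries and 45.5 to 62.7 FPKM in WT AP, and did not pass (-0.45 ± 0.39 in AP and 0.70 ± 0.39 in sham). Ccl21b, a near-identical copy whose share of the reads is uncertain, fell in AP (-0.95 ± 0.38, a call lost in 6 of 20 omissions). Summed lymphatic endothelium markers in AP lung were 129.8 to 281 FPKM in WT and 21.5 to 44.2 in KO, without overlap. Of the tested markers 2 of 2 were lower, against 28.1% of all tested genes, and their part in the value of Ccl21b was not tested. Ccl19 was at 0.717 FPKM in WT sham and did not pass, and it has pseudogene copies that could share its reads. Cxcl13, Cxcl14, Cxcl5 and Ccl11 did not pass in either state. Their AP differences were -0.45 ± 0.33 for Cxcl13, the B cell attractant, -0.15 ± 0.21 for Cxcl14, 0.13 ± 0.28 for Cxcl5 and -0.26 ± 0.30 for Ccl11, the eosinophil attractant.

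Receptors in AP lung were lower in KO in 7 of 10 cases (28.1% of all tested genes) and higher in none (27.6%). In sham lung 1 of 10 was lower (30.0%) and none higher (28.8%). Cxcr3, carried by activated T and NK cells, was 5.91, 2.05, 3.37, 1.91 and 3.3 FPKM in WT sham, 4.79, 7.33, 4.78, 1.08 and 6.37 in WT AP, 0.538, 0.816, 1.38, 5.21 and 0.623 in KO sham and 1.28, 1.24, 0.436, 0.665 and 0.691 in KO AP. KO sham replicate 4 and WT AP replicate 4 broke the separation of the genotypes. It fell by 1.54 ± 0.37 in AP (limma adjusted p = 0.00183), and in sham the difference was -0.82 ± 0.37, adjusted p = 0.065 by limma. Cxcr4 was 34.1, 26.4, 29.8, 30.0 and 25.1 FPKM in WT sham, 33.5, 36.7, 36.1, 39.4 and 34.8 in WT AP, 17.4, 21.6, 22.0, 38.3 and 27.0 in KO sham and 17.7, 21.6, 20.6, 28.4 and 21.8 in KO AP. Every KO AP library was under every WT AP library. It fell by 0.70 ± 0.16 in AP (limma adjusted p = 0.00102) and not detectably in sham (-0.24 ± 0.16, 95% interval -0.55 to 0.07).

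Other lower receptors in AP lung included Cxcr2, Ccr7, Cxcr6 and Ccr6. Cxcr2, the neutrophil receptor, was 4.08 to 9.29 FPKM in WT AP and 0.936 to 5.55 in KO AP (-1.44 ± 0.53, adjusted p = 0.0261 by limma), and it reached 19.6 FPKM in KO sham replicate 4, where summed neutrophil markers were 2887 FPKM. In AP lung these markers summed to 580.4 to 868 FPKM in WT and 189.9 to 641 in KO. Of the 7 markers 2 were lower in KO, near the 28.1% of all tested genes, and none was higher (27.6%). Ccr7, of dendritic cells and naive T cells, was 4.23 to 5.68 and 0.594 to 3.25 FPKM (-0.92 ± 0.34). Cxcr6, of resident T cells, was 1.44 to 9.33 and 1.34 to 1.71 FPKM (-0.80 ± 0.30). The calls of Cxcr2, Ccr7 and Cxcr6 were lost in 4, 3 and 3 of 20 omissions of a library (limma adjusted p up to 0.112). Ccr6, of B cells and Th17 cells, was 0.817 to 2.89 FPKM in WT sham and 0 to 0.167 FPKM in KO sham, and fell in AP (-0.73 ± 0.21) and sham (-1.22 ± 0.21, adjusted p = 7.73e-05 by limma) without overlap. Ccr2, Ccr1 and Cxcr5 did not pass in AP or in sham. Ccr2 was 4.62, 5.22, 5.85, 7.21 and 8.43 FPKM in KO sham and 7.73, 8.59, 9.74, 7.99 and 2.68 in KO AP, among which KO AP replicate 5 was alone at the low end.

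Without overlap in AP lung were 6 members that were lower in KO (Ccl5, Ccl6, Cxcl15, Ccr6, Ccr7 and Cxcr4), against 18.7% of all tested genes, and 1 that was higher (Cxcl17), against 19.3%. The lower share, 6 of 37, was thus near the background.

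**Figure D3:**
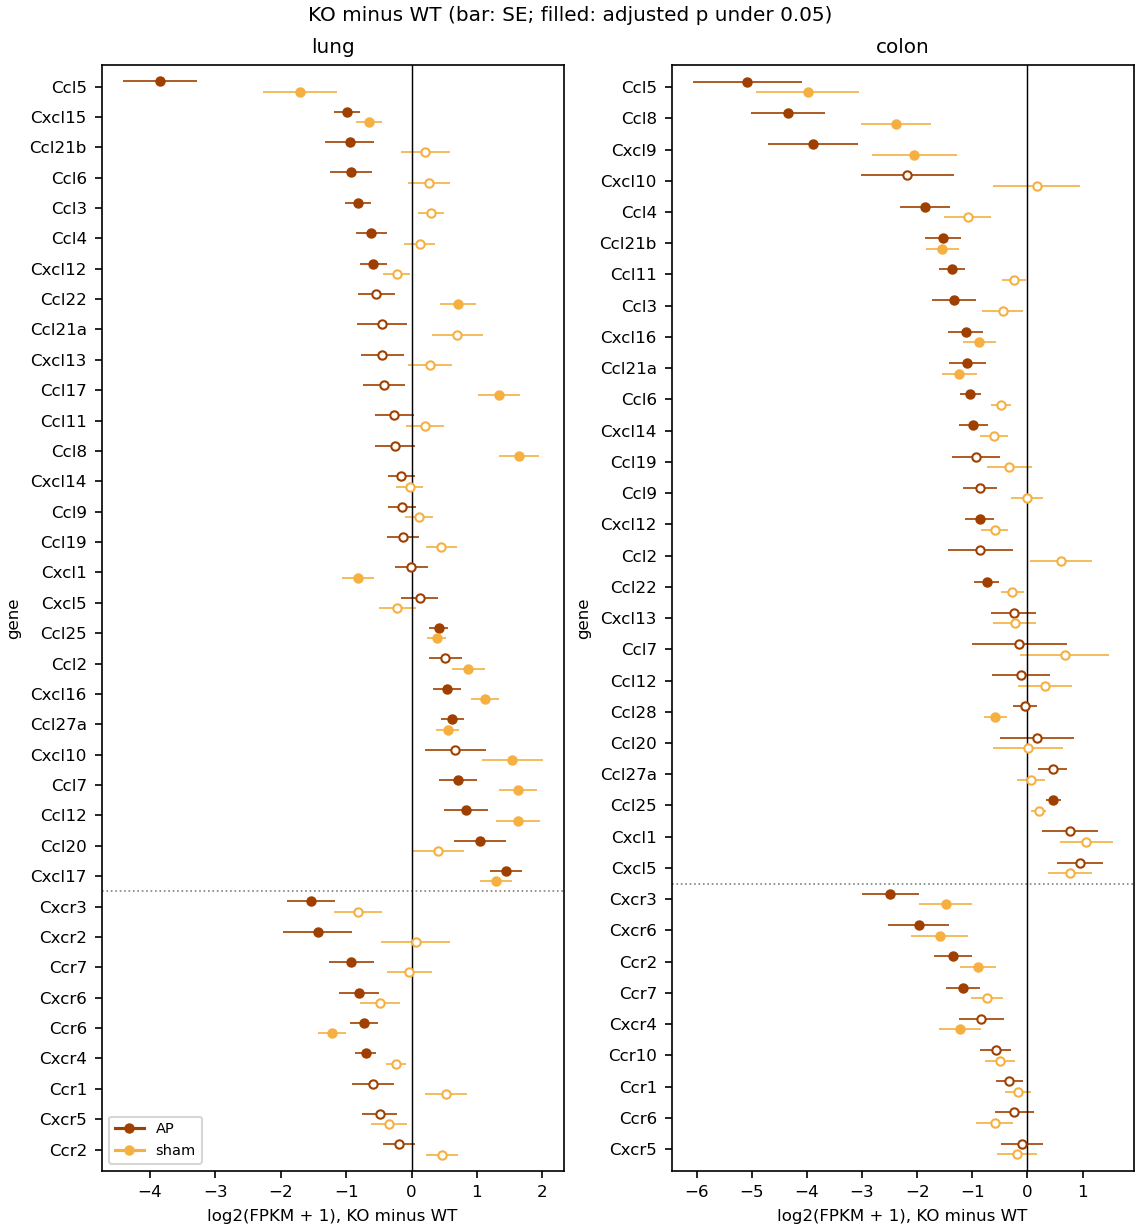
KO minus WT difference of log2(FPKM + 1) for tested members in AP (brown) and sham (orange), with SE bars, filled where the limma adjusted p was under 0.05, ligands above the dotted line and receptors below it. In colon all filled points but Ccl25 in AP lie left of 0, and in lung the filled sham points of ligands lie mostly right of 0.

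In colon the comparison of KO with WT gave lower members almost throughout. In AP 19 of 36 passed against a percent_called of 18.3%, with 13 ligands and 5 receptors lower (10.9% of all tested genes were lower) and 1 ligand, Ccl25, higher (7.37%). The median log2 difference of the members was -0.90 and that of all genes -0.01. In sham 12 of 36 passed against a percent_called of 31.4%, with 7 ligands and 5 receptors lower (15.4% of all genes) and none higher (16.0%). The medians were -0.49 and 0.01. Under TPM scaling 19 members passed in AP and 16 in sham, all lower, with the median of all genes at -0.13 and -0.15. Of the members, 10 passed in both states, all lower.

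The counts changed when single libraries were left out. The share of all tested genes that passed in each omission is not given here, so these counts cannot be set against a background. In AP, 12 members passed without WT AP replicate 2. In sham, 5 passed without KO sham replicate 2 or 3 or without WT sham replicate 1 or 3, 6 without KO sham replicate 4, 4 without WT sham replicate 4 and 7 without WT sham replicate 5, and 13 without KO sham replicate 5.

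Ccl5 showed the largest colon difference. Its FPKM was 101, 79.7, 108, 102 and 66.4 in WT sham and 52.5, 204, 111, 15.8 and 96.4 in WT AP, against 2.24, 0.556, 1.3, 2.23 and 168 in KO sham and 2.06, 1.18, 0.15 and 1.72 in KO AP. The AP groups did not overlap, and 4 of 5 KO sham libraries lay far under all WT libraries while KO sham replicate 5 lay among the highest WT values. Ccl5 fell by 5.08 ± 0.99 in AP (limma adjusted p = 0.00287) and fell by 3.98 ± 0.93 in sham (limma adjusted p = 0.00437), the latter -5.20 without KO sham replicate 5. The group means in AP were 95.9 ± 70.9 FPKM (SD, n = 5) in WT and 1.28 ± 0.833 FPKM (SD, n = 4) in KO.

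T and NK markers followed the same libraries. They summed to 94.6, 64.3, 90.6, 96.5 and 78.1 FPKM in WT sham, 72.2, 177, 104, 23.0 and 172 in WT AP, 6.95, 2.08, 3.02, 5.2 and 143 in KO sham and 2.21, 4.17, 1.79 and 7.04 in KO AP. KO sham replicate 5 was high in these as well, and WT AP replicate 4 was the lowest WT library. Of 12 markers 10 were tested and 10 were lower in KO in each state, against 10.9% of all tested genes in AP and 15.4% in sham. Median Cd3e was 8.14 and 11.2 FPKM in WT sham and WT AP, and 0.481 and 0.479 FPKM in KO sham and KO AP. The part of these markers in the members' differences was not tested.

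**Figure D4:**
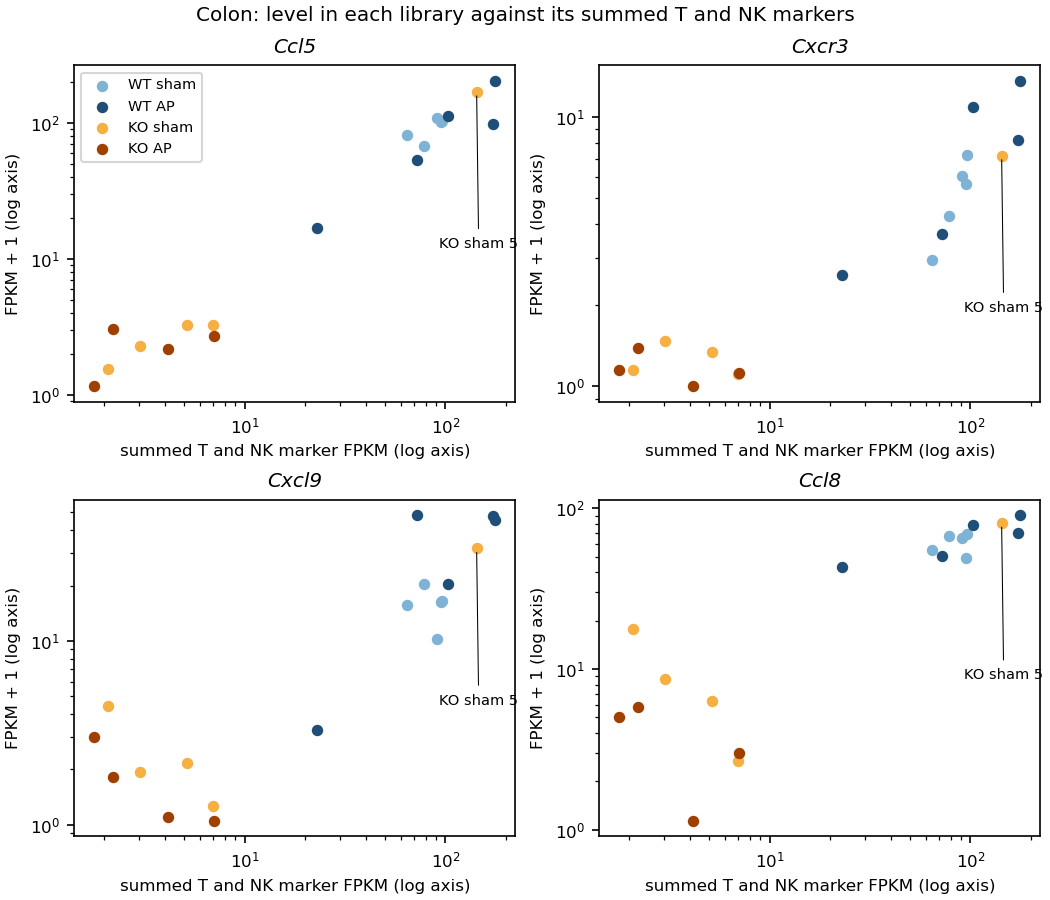
FPKM + 1 of Ccl5, Cxcr3, Cxcl9 and Ccl8 in each colon library (log axis) against the summed FPKM of 12 T and NK cell markers in the same library (log axis), coloured by group. All KO libraries but KO sham replicate 5 have marker sums under 10 FPKM and low values of the 4 genes, and KO sham replicate 5 lies among the WT libraries.

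Ccl8 had the lowest limma p of the members in colon. Its FPKM was 47.9, 53.9, 64.2, 68.6 and 66.7 in WT sham, 49.8, 90.2, 78.3, 42.1 and 68.8 in WT AP, 1.66, 16.7, 7.64, 5.3 and 80.0 in KO sham and 4.84, 0.139, 4.05 and 2.0 in KO AP. All KO libraries were under all WT libraries except KO sham replicate 5, the second highest of all 19. It fell by 4.34 ± 0.67 in AP (limma adjusted p = 8.36e-04) and fell by 2.39 ± 0.63 in sham (limma adjusted p = 0.00892), the latter -3.09 without KO sham replicate 5. In lung the sham difference of this gene had the opposite sign (1.65 ± 0.30). The 2 tissues were fitted separately and the difference between them was not tested.

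The Cxcr3 ligands followed in part. Cxcl9, which interferon-gamma induces, was 15.4, 14.7, 9.29, 15.6 and 19.4 FPKM in WT sham, 47.6, 44.5, 19.4, 2.29 and 46.6 in WT AP, 0.257, 3.4, 0.93, 1.15 and 30.9 in KO sham and 0.825, 0.0983, 2.01 and 0.0499 in KO AP. WT AP replicate 4 was the lowest WT library, and the AP groups still did not overlap. Cxcl9 fell by 3.88 ± 0.82 in AP (limma adjusted p = 0.00439, -4.59 without WT AP replicate 4) and fell by 2.05 ± 0.77 in sham (limma adjusted p = 0.05, just under the threshold, lost in 17 of 19 omissions of a library, up to 0.115, and -2.82 without KO sham replicate 5).

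Cxcl10 was 33.5, 44.0, 9.45, 31.8 and 45.3 FPKM in WT sham, 66.3, 70.0, 33.2, 3.77 and 63.4 in WT AP, 13.7, 35.9, 26.6, 36.4 and 78.1 in KO sham and 31.2, 1.44, 16.5 and 1.51 in KO AP. The AP groups overlapped through WT AP replicate 4, which was low, and the sham groups overlapped widely. Its AP difference was -2.18 ± 0.84 (limma adjusted p = 0.0772) and its sham difference 0.17 ± 0.79. The limma adjusted p in AP was 0.0104 without WT AP replicate 4, 0.0234 without KO AP replicate 1 and up to 0.231 in other omissions. Median Ifng, the gene of interferon-gamma, was 1.98 FPKM in WT AP and 0.0377 FPKM in KO AP, and 7.12 FPKM in KO sham at its highest.

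The sequences before the start sites of Ccl8, Cxcl9 and Cxcl10 are shown because Ccl8 and Cxcl9 had the largest AP differences in colon after Ccl5, and Cxcl10 binds the same receptor as Cxcl9. Windows of 250 bases before to 50 after the start were found for 38 of the 52 members (RefSeq, GRCm38.p6, not the build of the deposited values) and were searched on both strands for a kappaB form (GGG and TTCC with any 3 bases between), an interferon-stimulated response element core (GAAA and GAAA with any 2 bases between), a gamma-activated sequence core (TTC and GAA with any 3 bases between) and TATAAA. The 250 bases before the start are printed 5′ to 3′ on the gene's strand, with every match in capitals. Ccl8 is at chr11:82114935-82115184 on the plus strand, Cxcl9 at chr5:92328080-92328329 on the minus strand and Cxcl10 at chr5:92348890-92349139 on the minus strand.
Ccl8: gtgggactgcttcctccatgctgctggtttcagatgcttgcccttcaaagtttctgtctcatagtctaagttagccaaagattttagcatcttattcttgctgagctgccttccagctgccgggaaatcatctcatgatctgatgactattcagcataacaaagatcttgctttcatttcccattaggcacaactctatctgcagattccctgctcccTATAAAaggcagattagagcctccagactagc
Cxcl9: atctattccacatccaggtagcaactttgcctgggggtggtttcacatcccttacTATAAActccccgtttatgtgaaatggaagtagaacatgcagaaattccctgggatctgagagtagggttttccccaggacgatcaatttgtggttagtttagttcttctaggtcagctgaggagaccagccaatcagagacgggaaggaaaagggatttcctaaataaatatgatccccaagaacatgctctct
Cxcl10: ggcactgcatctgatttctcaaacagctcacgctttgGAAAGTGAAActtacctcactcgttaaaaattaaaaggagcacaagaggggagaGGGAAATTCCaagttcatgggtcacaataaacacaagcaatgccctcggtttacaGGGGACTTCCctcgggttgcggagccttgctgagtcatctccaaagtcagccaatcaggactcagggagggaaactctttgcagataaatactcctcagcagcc
The Cxcl10 window held the kappaB form 2 times, at -159 to -150 and -104 to -95 from the start, and the response element core at -213 to -204. The Ccl8 window held TATAAA at -32 to -27 and that of Cxcl9 at -195 to -190. Of all 32851 windows, 5.56% held the kappaB form, 3.44% the response element core, 8.3% the gamma-activated core and 13.6% TATAAA. Of the 38 members with a window, 9 held the kappaB form (Ccl1, Ccl20, Ccl9, Ccr3, Ccr6, Cxcl1, Cxcl10, Cxcl2 and Cxcl3), 3 the response element core (Ccl19, Cxcl10 and Cxcl14), 4 the gamma-activated core and 11 TATAAA. A member was counted if any of its windows held a match, whereas the percentages are shares of single windows. A match describes letters in its window only.

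**Figure D5:**
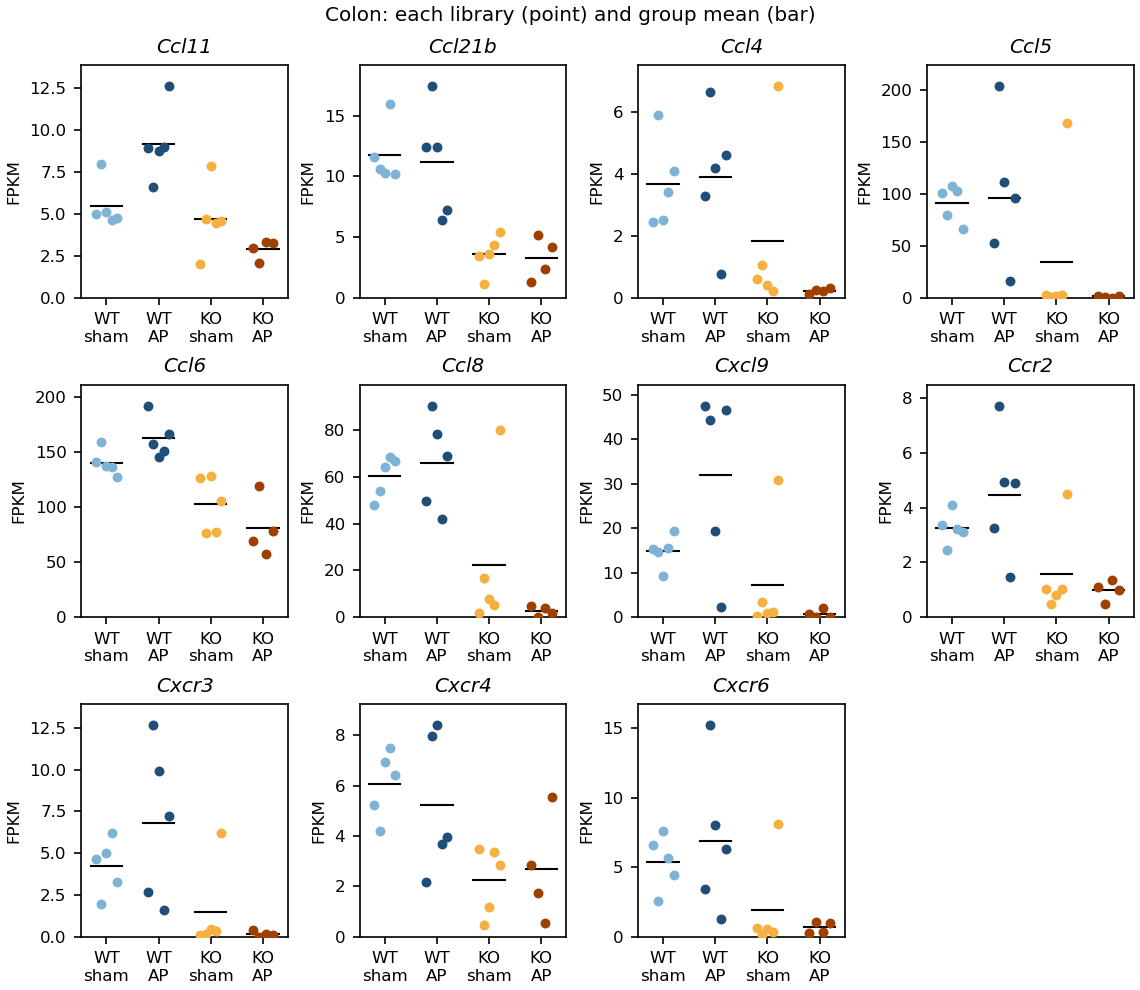
FPKM of 11 members in each colon library (points, coloured by group) with the group mean (bar), each panel on its own linear axis from 0. The KO AP points lie near 0 for Ccl4, Ccl5, Ccl8, Cxcl9 and Cxcr3, and the high KO sham point in these panels is replicate 5.

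Ccl4 was 2.45, 5.89, 2.51, 3.42 and 4.11 FPKM in WT sham, 3.3, 6.65, 4.18, 0.782 and 4.62 in WT AP, 0.608, 1.05, 0.415, 0.202 and 6.83 in KO sham and 0.116, 0.246, 0.224 and 0.312 in KO AP. All KO AP libraries were lower than all WT AP libraries, and KO sham replicate 5 was the highest of all. Ccl4 fell by 1.86 ± 0.45 in AP (limma adjusted p = 0.00957) and did not pass in sham (-1.08 ± 0.42, adjusted p = 0.059). Ccl3 was 0.318 to 2.52 FPKM in WT AP and 0 to 0.183 FPKM in KO AP, and fell in AP (-1.34 ± 0.40, adjusted p = 0.0259 by limma, lost in 7 of 19 omissions, up to 0.062).

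Ccl6 was 141, 159, 137, 136 and 127 FPKM in WT sham, 192, 158, 145, 151 and 166 in WT AP, 126, 76.6, 128, 77.3 and 106 in KO sham and 69.6, 119, 57.6 and 78.1 in KO AP. The AP groups did not overlap and the sham groups touched. It fell by 1.04 ± 0.19 in AP (limma adjusted p = 0.00214), with a sham difference of -0.47 ± 0.18, adjusted p = 0.0545. Ccl11, the eosinophil attractant, was 5.0, 7.95, 5.08, 4.65 and 4.76 FPKM in WT sham, 8.92, 6.61, 8.76, 9.0 and 12.6 in WT AP, 2.01, 4.7, 7.84, 4.44 and 4.56 in KO sham and 2.97, 2.05, 3.32 and 3.27 in KO AP. WT AP and KO AP did not overlap, while the sham groups did. It fell by 1.37 ± 0.24 in AP (limma adjusted p = 0.00147), while in sham the difference was -0.24 ± 0.22. The difference of the AP response between KO and WT was -1.13 ± 0.32 (limma adjusted p = 0.107). It was 0.00869 without KO sham replicate 1 and up to 0.214 in other omissions.

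The lymphatic chemokines Ccl21a and Ccl21b were lower in KO colon in both states. Ccl21b was 11.6, 10.6, 10.3, 16.0 and 10.2 FPKM in WT sham, 12.4, 17.4, 12.4, 6.43 and 7.2 in WT AP, 3.42, 1.16, 3.61, 4.36 and 5.4 in KO sham and 1.33, 5.21, 2.37 and 4.18 in KO AP. Every KO library was under every WT library of the same state. It fell by 1.53 ± 0.33 in AP (limma adjusted p = 0.00479) and fell by 1.54 ± 0.31 in sham (limma adjusted p = 0.00155). Ccl21a, which is near-identical to it, was 40.2 to 71.2 FPKM in WT sham and 10.2 to 36.4 in KO sham (-1.24 ± 0.32, adjusted p = 0.0073 by limma), and 39.0 to 73.3 and 13.6 to 39.7 in AP (-1.09 ± 0.34, adjusted p = 0.031 by limma, lost in 4 of 19 omissions, up to 0.104). Without the colon libraries under 0.94 the AP difference of Ccl21a was -0.49 and did not pass (limma adjusted p = 0.275). The split of reads between these copies is uncertain. Summed lymphatic endothelium markers were 8.54 to 15.5 FPKM in WT sham, 4.07 to 9.75 in WT AP, 1.72 to 6.65 in KO sham and 2.88 to 5.86 in KO AP. Of the tested markers 2 of 2 were lower in sham (15.4% of all tested genes) and 1 of 2 in AP (10.9%), and their part was not tested.

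Other colon ligands that fell were Cxcl16 in AP (-1.12 ± 0.31) and sham (-0.87 ± 0.29), Cxcl14 in AP (-0.98 ± 0.26), Cxcl12 in AP (-0.86 ± 0.26), Ccl22 in AP (-0.74 ± 0.23) and Ccl28 in sham (-0.58 ± 0.21, adjusted p = 0.0428 by limma, lost in 10 of 19 omissions, up to 0.124). Cxcl16 was 11.4 to 29.0 FPKM in WT AP and 5.57 to 10.3 in KO AP, and in lung it was higher in KO. Its AP call was lost without WT AP replicate 2 (limma adjusted p = 0.0556) and its sham call in 7 of 19 omissions (up to 0.0915). The call of Ccl22 was lost in 5 of 19 omissions (up to 0.0871) and that of Cxcl12 in 6 (up to 0.115). Leaving out together the colon libraries under 0.94 ended the AP calls of Cxcl16 (limma adjusted p = 0.0962), Cxcl14 (0.209), Cxcl12 (0.169) and Ccl22 (0.0984) and the sham call of Ccl28 (0.059). Markers of fibroblasts, a source of Cxcl12 in many tissues, were lower in KO colon in 4 of 5 cases in each state. Of all tested genes 10.9% were lower in AP and 15.4% in sham, and the part of these markers was not tested. Ccl25, the ligand of Ccr9 in gut epithelium, rose in AP with 3.77 to 4.96 FPKM in WT and 4.82 to 7.46 FPKM in KO (0.47 ± 0.14, adjusted p = 0.028 by limma), lost under TPM scaling and in 4 of 19 omissions (up to 0.0845).

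Ligands that did not pass in colon included the neutrophil attractants Cxcl1 and Cxcl5 and the Ccr2 ligands Ccl2, Ccl7 and Ccl12. Cxcl1 was 0.279 to 0.848 FPKM in WT sham and 0.267 to 6.93 in KO sham (1.07 ± 0.48, adjusted p = 0.0964 by limma), and Cxcl5 was 0.123 to 1.5 and 0.675 to 8.14 in AP (0.95 ± 0.42). Summed neutrophil markers in colon were 17.1 to 79.3 FPKM in WT AP and 236 to 772 in KO AP. Of 4 tested markers 1 was higher (7.37% of all tested genes) and 1 lower (10.9%). Ly6g had medians of 51.4 and 313.5 FPKM and S100a8 of 1.0 and 0.435 FPKM, and Cxcr2 reached at most 0.207 FPKM in any colon library. Ccl7 ranged from 0.925 to 46.3 FPKM within KO AP, and its AP difference was -0.15 ± 0.86 (95% interval -1.84 to 1.54). Ccl2 (-0.86 ± 0.59), Ccl12 (-0.12 ± 0.52), Ccl9 (-0.86 ± 0.31), Ccl19 (-0.93 ± 0.43), Ccl20 (0.17 ± 0.67), Ccl27a (0.46 ± 0.26) and Cxcl13 (-0.25 ± 0.41) did not pass in AP.

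The lower colon receptors included Cxcr3, Cxcr6 and Ccr2 in both states, Ccr7 in AP and Cxcr4 in sham. Cxcr3 was 4.65, 1.94, 5.04, 6.22 and 3.29 FPKM in WT sham, 2.66, 12.6, 9.93, 1.58 and 7.21 in WT AP, 0.109, 0.149, 0.475, 0.344 and 6.19 in KO sham and 0.383, 0, 0.151 and 0.119 in KO AP. The KO AP values stand for 0 to 52 reads a library. KO sham replicate 5 was within the WT range, and the other KO libraries were all under it. Cxcr3 fell by 2.49 ± 0.52 in AP (limma adjusted p = 0.00408) and fell by 1.48 ± 0.49 in sham (limma adjusted p = 0.0275), -1.99 without KO sham replicate 5. The sham call was lost in 7 of 19 omissions (up to 0.0698).

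Cxcr6 was 6.57, 2.57, 7.62, 5.65 and 4.46 FPKM in WT sham, 3.44, 15.2, 8.03, 1.28 and 6.33 in WT AP, 0.61, 0.115, 0.538, 0.363 and 8.1 in KO sham and 0.294, 1.09, 0.31 and 1.02 in KO AP. The AP groups did not overlap, and KO sham replicate 5 was above every WT sham library. It fell by 1.97 ± 0.55 in AP (limma adjusted p = 0.0193, 0.0564 without WT AP replicate 2) and fell by 1.59 ± 0.52 in sham (limma adjusted p = 0.0267, lost in 6 of 19 omissions, up to 0.0725), -2.13 without KO sham replicate 5.

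Ccr2 was 3.36, 2.47, 4.1, 3.23 and 3.1 FPKM in WT sham, 3.24, 7.71, 4.92, 1.47 and 4.89 in WT AP, 1.02, 0.48, 0.805, 1.03 and 4.48 in KO sham and 1.11, 0.497, 1.37 and 1.01 in KO AP. The AP groups did not overlap, and KO sham replicate 5 exceeded every WT sham library. It fell by 1.35 ± 0.34 in AP (limma adjusted p = 0.0113) and fell by 0.90 ± 0.32 in sham (limma adjusted p = 0.0399, lost in 8 of 19 omissions, up to 0.107, and -1.21 without KO sham replicate 5). Summed monocyte and macrophage markers were 186 to 526 FPKM in WT AP and 98.9 to 228 FPKM in KO AP. Of these 8 markers 4 were lower, against 10.9% of all tested genes, and their part was not tested. Cxcr4 was 5.24, 4.19, 6.94, 7.51 and 6.44 FPKM in WT sham, 2.18, 7.97, 8.39, 3.69 and 3.97 in WT AP, 3.48, 0.463, 1.18, 3.37 and 2.86 in KO sham and 2.84, 1.75, 0.561 and 5.54 in KO AP. Its sham groups did not overlap and its AP groups did. It fell by 1.22 ± 0.38 in sham (limma adjusted p = 0.0221, lost in 4 of 19 omissions, up to 0.0675), and the AP difference was -0.83 ± 0.40, adjusted p = 0.157.

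Ccr7 fell in AP colon with 1.15 to 4.46 FPKM in WT and 0.0805 to 1.06 FPKM in KO (-1.17 ± 0.31, adjusted p = 0.015 by limma). Ccr1 (-0.33 ± 0.25 in AP), Ccr6 (-0.24 ± 0.36), Cxcr5 (-0.10 ± 0.38) and Ccr10 (-0.58 ± 0.28), the receptor of Ccl28 on plasma cells, did not pass in either state. In AP colon 15 of 36 members were lower in KO without overlap, against 8.61% of all tested genes. In sham 3 were (Ccl21a, Ccl21b and Cxcr4), against 8.15%.

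Other genes of the pathway were counted against the shares of all tested genes that passed, 55.8% in AP lung, 58.8% in sham lung, 18.3% in AP colon and 31.4% in sham colon. Among 20 genes of chemokine receptor signalling, 19 were tested in lung, of which 2 were higher and 13 lower in KO AP (median -0.68, all genes 0.00), and 2 higher and 11 lower in KO sham (median -0.58). The lowest limma p in AP lung belonged to Gng2 (-1.35 ± 0.18), a G protein subunit, Pik3cg (-1.07 ± 0.15), the kinase that chemokine receptors activate, and Dock2 (-1.76 ± 0.27), an activator of Rac in leukocytes. In colon 10 of 20 were lower and none higher in AP (median -0.34), led by Prex1 (-1.51 ± 0.28), Pik3cg (-0.93 ± 0.18) and Plcb2 (-0.94 ± 0.19). In sham colon 8 were lower and 3 higher, with Gnb2 (0.72 ± 0.11), Arrb1 (-1.07 ± 0.18) and Dock2 (-1.32 ± 0.32) first.

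Of 12 other genes of the chemokine system, 9 were tested in lung, where 5 were lower in KO AP and 5 lower and 1 higher in KO sham. Dpp4, a protease that trims chemokines, was first in both (-1.13 ± 0.17 and -1.09 ± 0.17), followed by Cx3cr1 (-1.49 ± 0.23) and Ccrl2 (-1.32 ± 0.28) in AP and by Pf4 (1.22 ± 0.20), a platelet chemokine and the gene that rose, and Ccrl2 in sham. In colon 3 of 10 were lower in each state, Xcl1 (-1.22 ± 0.20), a T and NK cell chemokine, Cx3cr1 (-1.28 ± 0.21) and Ccrl2 (-1.48 ± 0.34) in AP. In sham they were Cx3cr1, Xcl1 and Ackr2 (-0.61 ± 0.17), a scavenging receptor.

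Of 13 genes that induce or restrain chemokine transcription, 10 were tested in lung. In AP lung 1 was higher, Rela (0.47 ± 0.08), an NF-kappaB subunit, and 4 were lower, with Ifngr1 (-1.17 ± 0.15) and Tnfaip3 (-0.78 ± 0.14) first. In sham lung 1 was higher and 3 lower, with the same 3 genes at the lowest p. These 5 and 4 of 10 were under the shares of all tested lung genes. In colon 11 were tested, of which Rela rose in sham (0.29 ± 0.09), also a smaller share than over all genes. Ifng did not pass in AP colon (-1.24 ± 0.50). For AP against sham, 0 genes of these 3 lists passed by limma in either genotype or tissue. At an unadjusted limma p under 0.05 there were 5 (WT) and 6 (KO) in lung, and 3 (WT) and 2 (KO) in colon, again without the share of all tested genes.

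Length went with the differences over all genes. The longest annotated transcript had a median of 1096 bases for the lung ligands, 2406 for the lung receptors and 2982 over all tested lung genes. Spearman's rho between that length and the KO minus WT log2 difference was -0.34 in AP lung and -0.44 in sham lung over 15879 genes that share these libraries, so shorter genes tended to be higher in KO. In colon the values were -0.05 in AP and -0.32 in sham over 14937 genes. The part of length in the members' differences was not tested.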

How the data were processed

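The deposited tables give FPKM per gene and library, made by the authors from RNA-seq reads. The submitters' processing notes name StringTie 1.3.3b, HISAT2 2.1.0 and mm39. Settings and strandedness: not given in the sources used here. Groups came from the sample titles. Symbols came from Ensembl gene IDs (52081 of 55357 matched), transcript lengths from GENCODE vM21, and promoter windows from RefSeq on GRCm38.p6.

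Genes that reached 1 FPKM in 4 or more libraries (15978 in lung, 15001 in colon) were tested on log2(deposited FPKM + 1), so differences of low genes are understated. limma 3.58.1 in R 4.3.3 fitted 1 mean per group with a mean-variance trend, separately in each tissue. Benjamini-Hochberg adjustment ran over all tested genes, with 5 comparisons per tissue and a threshold of 0.05. The comparisons share groups. Python 3.11.15 with scipy 1.17.1 ran the exact permutation tests of Cd177. The fit was tested on simulated data. Library totals were recovered from the FPKM steps of low genes with a single transcript, of which at least 98.3% of values were whole reads.

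Members, lists and tests were chosen with earlier results of these data known. The value in every library is given for the 10 tested members of lowest p in any comparison with a group mean of at least 2 FPKM, and for the 3 ligands and 2 receptors of highest mean. Other tested members have at least 1 value each. The results of some genes that enter the counts are not reported here. The alternatives were a pseudocount of 0.1, no filter, 1 FPKM in at least 10 libraries, TPM and upper quartile scaling, a replicate block, sample weights, leaving out each library, and leaving out together the libraries with a correlation under 0.94. Colon Cxcl10, Ly6g and S100a8 are outside the naming rule and were chosen after their values were seen.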

Additional observations from a re-analysis of the deposited data

Results flagged for a closer look

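In 88 groups of 17 members, 13 held a library whose gap to the nearest other library was above Dixon's 95% critical value. Chance flags about 1 in 20 groups.

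KO sham replicate 5 of colon was the outlying library in 7 of these. It had 168 FPKM of Ccl5 (0.556 to 2.24 in the other KO sham libraries), 80.0 of Ccl8 (1.66 to 16.7), 30.9 of Cxcl9 (0.257 to 3.40) and 6.83 of Ccl4 (0.202 to 1.05). Its receptors were 8.10 FPKM of Cxcr6 (0.115 to 0.610), 6.19 of Cxcr3 (0.109 to 0.475) and 4.48 of Ccr2 (0.480 to 1.03). Its summed T and NK markers were 143 FPKM, and their part in these values was not tested.

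The other colon libraries were WT sham replicate 2 with 7.95 FPKM of Ccl11 (4.65 to 5.08 in the others) and WT sham replicate 4 with 16.0 FPKM of Ccl21b (10.2 to 11.6). In lung, WT AP replicate 4 had 68.6 FPKM of Cxcl17 (46.5 to 51.4), KO sham replicate 4 had 5.21 FPKM of Cxcr3 (0.538 to 1.38), KO sham replicate 5 had 32.3 FPKM of Ccl17 (6.16 to 11.3) and KO AP replicate 5 had 2.68 FPKM of Ccr2 (7.73 to 9.74).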

How the results depend on the processing

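The alternatives were followed for 82 differences of single members, 67 that passed and 15 that did not, and none of these changed sign. Other named differences were not followed. Over 82 differences of single members, calls were lost in 24 with no filter, 13 with the replicate block, 9 without the libraries under 0.94, 8 with TPM scaling, 5 with sample weights and 4 with a pseudocount of 0.1, and gained in 9 with sample weights, 3 without the libraries under 0.94 and 1 each with TPM and upper quartile scaling. With sample weights the members passing were 13 for AP against sham in WT lung (0 without weights), 7 for the difference of the AP response in lung (0), 2 for that in colon (0) and 1 for AP against sham in KO colon (0), which was also 1 without the libraries under 0.94. The shares of all tested genes that passed with weights are not given here. With no filter 5 members passed in sham colon (12 with it). The causes were not tested.

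Leaving out 1 library at a time gave 13 to 24 members for KO against WT in AP lung, 13 to 19 in sham lung, 12 to 20 in AP colon and 4 to 14 in sham colon. The shares of all tested genes that passed in single omissions are not given here. For AP against sham the range was 0 to 0 in WT lung and WT colon, 0 to 2 in KO lung (2 on omitting KO sham replicate 1, 1 on omitting KO AP replicate 3) and 0 to 3 in KO colon (3 on omitting KO sham replicate 1, 1 on omitting KO AP replicate 1), and for the difference 0 to 0 in lung and 0 to 1 in colon (without KO sham replicate 1).

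With the replicate block 15 members passed in AP lung, 14 in sham lung, 16 in AP colon and 10 in sham colon. Same-numbered libraries did not deviate together in every pair of any comparison, so the numbers were not taken as pairs.

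A pseudocount of 0.1 moved 29 of the 67 differences that had passed by over 1.5 times, all away from 0. On that log2 scale KO minus WT was, in AP lung, Ccl12 1.78, Ccl20 2.02, Ccl3 -1.91, Ccl7 1.34, Ccr6 -2.29 and Cxcr3 -2.23. In sham lung it was Ccl12 3.67, Ccl2 1.81, Ccl7 3.36, Ccl8 2.25, Ccr6 -3.28, Cxcl1 -1.57 and Cxcl10 2.38. In AP colon it was Ccl22 -1.45, Ccl3 -3.32, Ccl4 -3.40, Ccl5 -6.07, Ccl8 -5.15, Ccr2 -1.94, Ccr7 -2.22, Cxcl9 -5.45, Cxcr3 -4.56 and Cxcr6 -2.94, and in sham colon Cxcl9 -2.74, Cxcr3 -2.73 and Cxcr6 -2.65. Leaving out the libraries under 0.94 gave -2.48 for Ccl5 in sham lung, -5.12 for Ccl8 in AP colon, and -5.20 for Ccl5, -3.09 for Ccl8 and -2.82 for Cxcl9 in sham colon, and TPM scaling gave -1.81 for Ccr6 in sham lung and -3.13 for Cxcr3 in AP colon.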
